A study of Bos taurus and Felis catus with 14 samples.

Results

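The microRNAs mir-10, mir-196 and mir-615 are encoded among the HOX genes, which encode transcription factors that set the identity of body segments along the head-to-tail axis. Members were the predicted precursor loci whose name holds 1 of these 3 family numbers, with any letter, copy number or mark for a further member, and no antisense name. This rule found 12 of the 1305 predicted loci, 6 of 810 in cow (Bos taurus) and 6 of 495 in cat (Felis catus). Small RNA was sequenced from 10 tissues of 3 Angus steers, 1 library each. The retina, optic nerve, iris, bone marrow, penis, dental pulp, submandibular lymph node and oral papillae, 8 tissues, came from a single steer, and the brain stem and the corium of the foot from another animal each. The feline libraries were 2 of normal skin and 2 of normal skeletal muscle from 3 adult neutered male domestic short hair cats. The animals carried no stated allele and received no stated treatment. Loci were called from the pooled reads of each species. The deposited data are thus 1 list of named positions for cow and 1 for cat, without replicates or read numbers. The study's read counts per microRNA were not used here, so levels by tissue were not compared and the positions are given without the depth behind them.

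A microRNA is cut from a hairpin precursor that can give a product from its 5′ side (5p) and another from its 3′ side (3p). Bases 2 to 8 of a product, its seed, do most of the pairing with target messenger RNAs. In vertebrates mir-10 genes lie nearer to the HOX genes that act toward the front of the body and mir-196 genes nearer to those that act toward the rear, and miR-196 is known to direct cleavage of the HOXB8 messenger RNA. The gene of mir-615 lies in the HOXC cluster.

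Bovine and feline mature sequences were not analysed here, so the human counterparts listed by the study are shown to let the families be compared by seed. Capitals mark bases 2 to 8, the letters are written as DNA, and the human mir-196b product is not among the sequences used here.
human miR-10a 5p: tACCCTGTagatccgaatttgt
human miR-10b 5p: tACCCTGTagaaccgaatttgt
human miR-196a 5p, from the first and the second copy: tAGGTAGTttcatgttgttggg
human miR-615 3p: tCCGAGCCtgggtctccct
human miR-615 5p: gGGGGTCCccggtgctcggatc
human miR-100 5p, a relative of miR-10: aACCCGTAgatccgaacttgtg
human let-7a 5p: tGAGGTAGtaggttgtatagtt
The miR-10 5p products share the seed ACCCTGT and differed at 1 position, T12A with miR-10a as reference and positions counted from 1 at the 5′ end. The human miR-10 3p products, not shown above, differed at 3 positions, A3G, T9A and A10T, and did not share a seed. The 5p products of the first and second human mir-196a copies were identical over all 22 nt. By the methods of the study, a read that fits several genome positions adds an equal fraction to each, so reads of identical products cannot be assigned to 1 copy. The miR-196a seed, AGGTAGT, also stands in let-7a, 1 base further from the 5′ end (from position 3 instead of 2). The seeds of miR-10a and miR-100 shared their first 4 bases, ACCC, and further along both products held the 11 bases GTAGATCCGAA, from position 7 in miR-10a and position 6 in miR-100. Neither miR-615 seed matched a miR-10 or miR-196 seed. The human miR-615 3p product is shown as listed, at 19 nt, shorter than the 21 nt 3p product called at mir-615 in cow and cat.

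In both species the set held the same complement of 2 mir-10 loci, 3 mir-196 loci and 1 mir-615 locus. All 6 bovine loci had a plain annotated name. In cat 5 had a plain name and 1, on NC_018729.2, carried the family number mir-196 and, in place of a letter, the suffix by which the authors mark a predicted locus outside the annotation. It is called the unlettered feline mir-196 locus here. None of the 22 bovine and 5 feline antisense names belonged to these families.

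The bovine loci lay on 4 chromosomes. The mir-10a precursor, bta-mir-10a, lay on chromosome 19 from 38549273 to 38549339 on the plus strand, and bta-mir-196a-1 lay on the same chromosome and strand from 38497005 to 38497068. On the minus strand of chromosome 5, bta-mir-615 lay from 26157890 to 26157961 and bta-mir-196a-2 from 26199811 to 26199870. The remaining members stood alone among the families, bta-mir-10b on chromosome 2 (minus strand, 20797622 to 20797687) and bta-mir-196b on chromosome 4 (plus strand, 69327774 to 69327834). None of the sources used here names the genome build of these positions.

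The label of HOX microRNAs was checked against the bovine genes of RefSeq. Their assembly, ARS-UCD2.0, is not known to be that of the calls, so names and gene order were taken and no coordinates. All 6 bovine names matched 1 gene each, on the same chromosome number as in the deposited set, and all 39 HOX genes of the table lay on these 4 chromosomes. On chromosome 19, MIR10A lay within the span of HOXB3 with HOXB5 and HOXB4 on its sides. MIR196A-1 lay within the span of HOXB9 with HOXB13 and HOXB8 on its sides. On chromosome 5, MIR615 lay within HOXC5 and MIR196A-2 lay between HOXC9 and HOXC10. On chromosome 2, MIR10B lay within HOXD4, and on chromosome 4, MIR196B lay between HOXA10 and HOXA9, where the table also places an uncharacterised gene over it. Thus 4 of the 6 fell within the span of a HOX gene and the other 2 between neighbouring HOX genes. No feline gene table was used, so the HOX genes beside the feline loci were not checked.

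The feline loci repeated the bovine arrangement on 4 sequences. On NC_018736.2, fca-mir-196a lay from 36354037 to 36354100 and fca-mir-10a from 36407083 to 36407149, both on the plus strand. On NC_018729.2, the unlettered mir-196 locus lay from 80235349 to 80235408 and fca-mir-615 from 80277797 to 80277868, again both on the plus strand. The remaining members were fca-mir-10b on NC_018730.2 from 164793722 to 164793787 on the plus strand and fca-mir-196b, on the minus strand of NC_018724.2 from 117972238 to 117972296. In each species, mir-196 shared a sequence with mir-10a once and with mir-615 once.

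The gap between the mir-196 and mir-10a precursors was 52204 nt in cow and 52982 nt in cat, 778 nt (1.49%) longer in cat. The gap between mir-196 and mir-615 was 41849 nt in cow and 42388 nt in cat, 539 nt (1.29%) longer in cat. In all 4 pairs both loci lay on the same strand, mir-196 lay upstream of its partner, and no other predicted locus lay between them. In the RefSeq table the bovine loci had the same order, with HOXB8, HOXB7, HOXB6 and HOXB5 lying wholly between MIR196A-1 and MIR10A, and HOXC6, HOXC8 and HOXC9 between MIR196A-2 and MIR615. The table also lists MIR2886 between MIR196A-1 and MIR10A. No bovine locus of that name was predicted, and its reads were not analysed here.

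**Figure D1:**
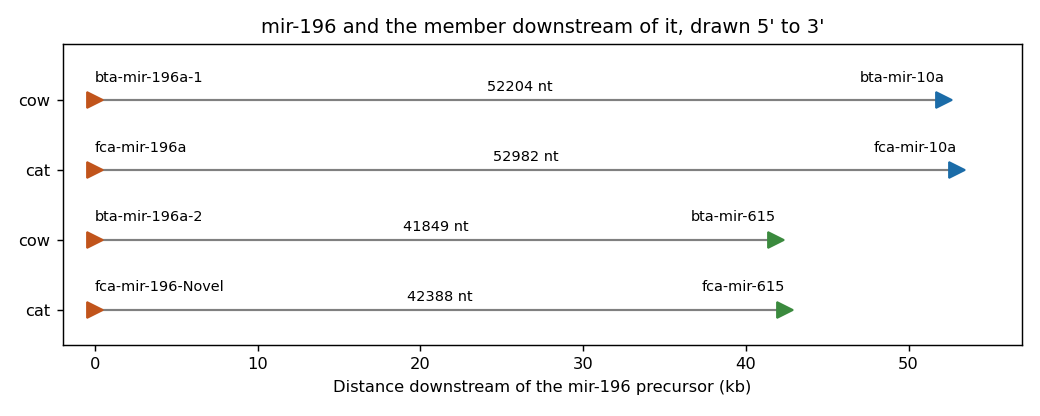
Distance in kb (horizontal axis) from each mir-196 precursor to the member downstream of it, in cow and in cat, drawn to scale in the direction of transcription with arrowheads for the loci. The mir-10a pair spans 52204 nt in cow and 52982 nt in cat, and the mir-615 pair 41849 and 42388 nt.

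For scale, the same gap was taken for every other pair of same-named loci that lay 10 to 100 kb apart in cow. There were 64 such pairs among 37 loci, and all lay on 1 sequence in cat as well. Their cat-to-cow ratio had a median of 0.943 and ranged from 0.411 to 1.87. The ratio was 1.0149 for mir-196 with mir-10a and 1.0129 for mir-196 with mir-615. Of the other pairs, 11 were longer in cat and 4 lay within 2% of equal length, as both member pairs did. Within 5% of equal length lay 28 of the 64. The window was set on the cow gap alone. Pairs below 10 kb in cat were thus kept, while pairs above 10 kb in cat only were left out. That choice can by itself shift the ratios and the number of pairs longer in cat. Many of these pairs share loci, and most of the 64 join loci of a single stretch, from mir-379 to mir-410, which lay 41908 nt apart in cow. The median and the counts therefore mostly describe that stretch and are no scale for the whole genome. The 4 pairs within 2% all joined loci among mir-379, mir-410, mir-487a and mir-495. The lowest ratios all joined mir-181c or mir-181d to mir-24-2 or mir-27a. The other pairs therefore describe the lists and were not used for a test.

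**Figure D2:**
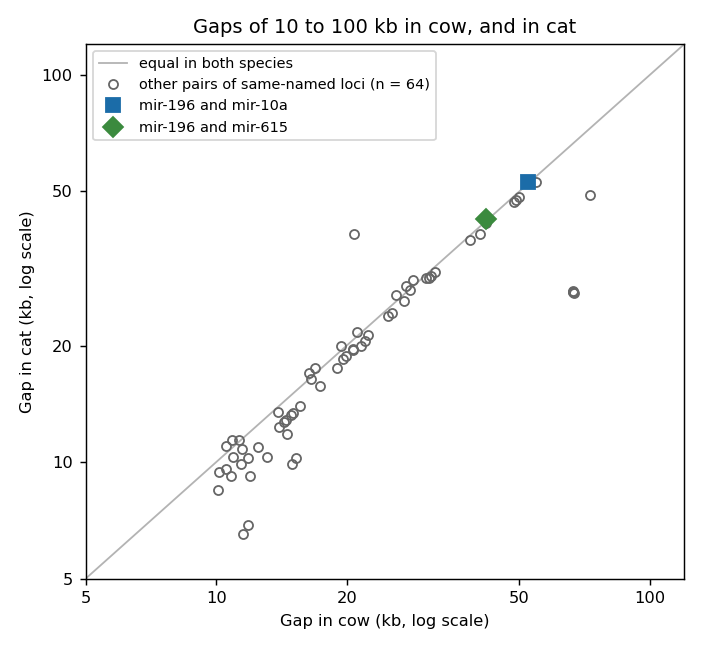
Gap between paired loci in cat (vertical axis, kb) against cow (horizontal axis, kb), both on log scales, for 64 other pairs of same-named loci (circles) and for mir-196 with mir-10a (square) and with mir-615 (diamond). Both member pairs lie on the line of equal length within 2%, while the ratios of the other pairs range from 0.411 to 1.87. Most circles join loci of a single stretch, from mir-379 to mir-410.

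None of the 6 bovine and none of the 6 feline members had a predicted neighbour within 10 kb, the distance by which the study grouped loci into clusters. Over all loci, 29.0% in cow and 33.3% in cat had such a neighbour. The nearest predicted locus to a member lay 41849 nt away in cow and 42388 nt away in cat, in both cases the mir-615 and mir-196 pair. At 100 kb, 4 of 6 members in each species had a neighbour, which was another member, against 39.8% of all bovine and 41.4% of all feline loci. Standing alone were mir-10b, whose nearest predicted locus was bta-Novel241 at 5945466 nt in cow and fca-Novel5 at 2490032 nt in cat, and mir-196b, whose nearest predicted locus belonged to the mir-148 family in both species.

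Outside the member pairs, loci of mir-148 and mir-152, families that carry related mature sequences, were the next predicted loci downstream of 3 of the 4 member sites. The locus mir-148a lay 1086399 nt downstream of mir-196b in cow and 1060473 nt in cat. Downstream of mir-10a, mir-152 lay at 531834 nt in cow and 502433 nt in cat. Downstream of mir-615, mir-148b lay at 308028 nt in cow and 273304 nt in cat. Each lay on the same strand as its member, in both species, with no predicted locus between. The cat-to-cow ratios were 0.976, 0.945 and 0.887. The nearest predicted locus on either side lay at a median of 315270.5 nt over all 810 bovine loci. In cat it lay at a median of 288847 nt over the 487 loci with another locus on their sequence. The third quartiles were 1479133 nt in cow and 2132201 nt in cat. A gap to the nearer side is never longer than the downstream gap of the same locus. These values are therefore a low scale for the downstream gaps above. No mir-148 or mir-152 locus stood beside mir-10b, but cow had a further mir-148 locus without a letter on chromosome 2, 67552340 nt upstream of bta-mir-10b. These were all 3 feline and all 4 bovine loci of the families.

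**Figure D3:**
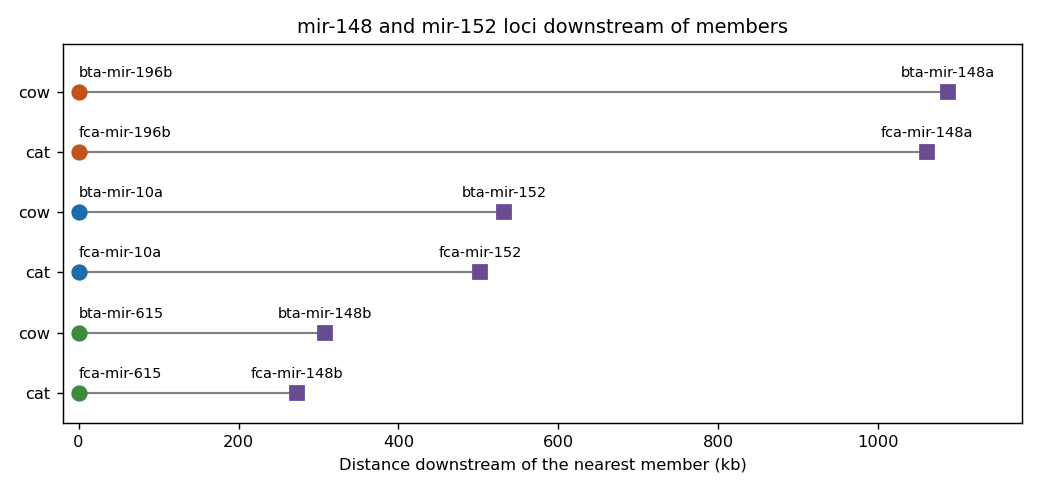
Distance in kb (horizontal axis) from mir-196b, mir-10a and mir-615 (circles) to the mir-148 or mir-152 locus downstream (squares), in cow and cat. The order of the distances is the same in both species, from mir-148a at 1086399 and 1060473 nt to mir-148b at 308028 and 273304 nt.

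All 12 members gave a product from both arms and no further product. Over all loci, 72.5% in cow and 65.7% in cat had products from both arms. The precursors were 60 to 72 nt long in cow and 59 to 72 nt in cat, with a median of 65 nt in both, beside 66 nt over all bovine and 65 nt over all feline loci. Among the members mir-615 was longest, at 72 nt in both species, above the third quartile of all loci (71 nt in cow and 70 nt in cat). The mir-196b and second mir-196a hairpins were shortest, at 59 to 61 nt, below the first quartile of 62 nt in both species.

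Hairpins of mir-10 differed little from each other. In both species the 22 nt 5p product of mir-10a began after 2 nt of the precursor, 19 nt separated it from the 21 nt 3p product, and 3 nt followed. On the bovine chromosome the 5p product ran from 38549275 to 38549296 and the 3p product from 38549316 to 38549336, and on the feline sequence they ran from 36407085 to 36407106 and from 36407126 to 36407146. In mir-10b the 5p product was the same length and began after the same 2 nt. Its 3p product, however, was 21 nt in cow (20797625 to 20797645) and 22 nt in cat (164793763 to 164793784), starting 1 nt nearer to the 5p product in cat, with both ending 3 nt before the end of a 66 nt precursor. The distance between the mir-10b products was thus 18 nt in cow and 17 nt in cat.

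The mir-196a hairpins differed from copy to copy and not between species. Beside mir-10a, bta-mir-196a-1 and fca-mir-196a were both 64 nt long, with a 22 nt 5p product after 2 nt, 16 nt between the products, a 21 nt 3p product and 3 nt after it. Beside mir-615, bta-mir-196a-2 and the unlettered feline locus were both 60 nt long, with a 23 nt 5p product at the very start of the precursor, 13 nt between the products, a 23 nt 3p product and 1 nt after it. The unlettered locus therefore matched bta-mir-196a-2 in 6 of 6 measures, against 0 of 6 for bta-mir-196a-1 and 1 of 6 for bta-mir-196b. Likewise fca-mir-196a matched bta-mir-196a-1 in 6 of 6 measures, bta-mir-196a-2 in 0 and bta-mir-196b in 1. By contrast, fca-mir-196b matched its namesake bta-mir-196b in 0 measures, bta-mir-196a-1 in 1 and bta-mir-196a-2 in 2, so the count of equal measures did not pick out its pair. The 6 measures are the precursor length, the product lengths, the distance between products and the bases before the 5p and after the 3p product, and the precursor length is the sum of the other 5. The 5p products of bta-mir-196a-2 and of the unlettered feline locus ran from 26199848 to 26199870 and from 80235349 to 80235371, each 1 nt longer than that of the copy beside mir-10a.

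The mir-196b hairpin differed between species in every measure. The bovine precursor was 61 nt long, with 1 nt before a 23 nt 5p product, 12 nt between the products and 3 nt after a 22 nt 3p product. The feline precursor was 59 nt long, with a 22 nt 5p product at its start, 13 nt between the products and 4 nt after a 20 nt 3p product. The feline 3p product, from 117972242 to 117972261, was the shortest of the 24 member products. The differences were 1 or 2 nt in each measure, and the deposited sets hold no measure of the error of a product end.

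The mir-615 hairpin was the same in both species. A 22 nt 5p product began after 7 nt, 21 nt separated it from a 21 nt 3p product, and 1 nt followed. The 7 nt before the 5p product and the 21 nt between the products were the largest values among the members. Over all loci with both arms, the third quartile was 5 nt in cow and 4 nt in cat for the first measure and 18 nt in both for the other. No other feline locus had the product lengths and the distance between products of fca-mir-615, out of 325 measured, and 2 other bovine loci out of 587 had those of bta-mir-615. The same counts, 0 in cat and 2 in cow, held for mir-196b. Among the bovine members the commonest shape was that of bta-mir-196a-1, shared with 8 other bovine loci, among them bta-mir-21 and bta-mir-99b.

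**Figure D4:**
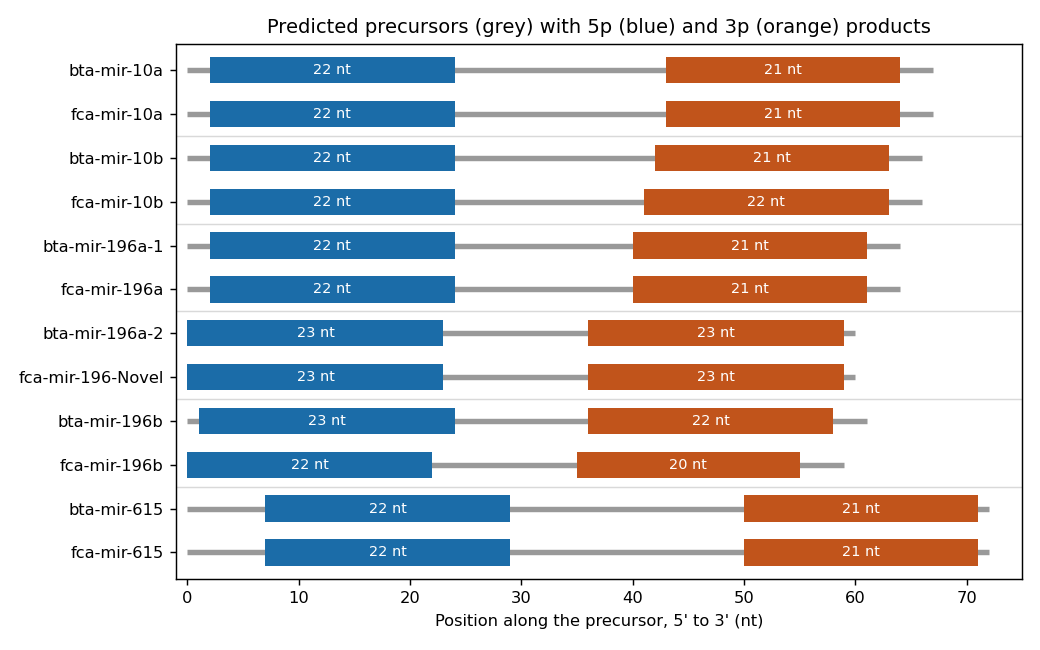
Predicted precursors of the 12 members along their length in nt from the 5′ end (grey), with the 5p product in blue and the 3p product in orange and each product's length inside its box. Cow and cat are drawn in neighbouring rows, and they match in 4 of 6 pairs, the exceptions being mir-10b and mir-196b.

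Pairing loci by name, or, for the mir-196a copies, by the partner family on the sequence, gave 6 cow and cat pairs. All 6 measures were equal in 4 pairs, and the precursor length was equal in 5. The product lengths and the distance between products alone were also equal in 4. Among the 139 loci with the same name and both arms in both species, all measures were equal in 31.7%, the precursor length in 41.7%, and the product lengths and their distance in 54.0%. The pairs equal in all measures were mir-10a and mir-615, paired by name, and both mir-196a copies, paired by partner. The other pairs made by name, mir-10b and mir-196b, were not equal in all measures. The 4 pairs made by name are also among the 139 loci, which were all paired by name. The pairs are few and 2 of them were not paired by name, so the shares are given side by side with no test.

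The order in which a locus lists its products differed between the families. The 10 mir-10 and mir-196 loci listed the 5p product first, whereas both mir-615 loci listed the 3p product first. Over all loci with both arms, the 3p product stood first at 49.2% in cow and 44.0% in cat. The order did not follow the position on the chromosome, since bta-mir-10b, on the minus strand, listed the product with the higher coordinates first. None of the sources used here says what the order stands for.

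The relatives of mir-10 also had equal counts of loci in both species. The families mir-99, mir-100 and mir-125 had 6 loci in cow and 6 in cat. All 12 had products from both arms and listed the 5p product first, as the mir-10 and mir-196 loci did. Their hairpins were not all alike. All 6 measures were equal in cow and cat for mir-100 and mir-125b-1, but not for mir-99a, mir-99b and mir-125b-2. In contrast to the members, 4 of the 6 loci of these families in each species had a predicted neighbour within 10 kb. The share of all loci was 29.0% in cow and 33.3% in cat. In each species these were 2 of 2 mir-99 loci, the 1 mir-100 locus and 1 of 3 mir-125 loci, so mir-125 stood near the share of all loci. The let-7 family, whose start shares letters with that of miR-196, had 11 loci in each species, all with both arms and the 5p product listed first, and 9 of the 11 had a neighbour within 10 kb.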

How the data were processed

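Small RNA from 10 bovine and 4 feline libraries was trimmed by the authors with cutadapt (version 1.15 in the submitters' processing notes), aligned with Bowtie, pooled within each species and passed to miRWoods, which calls precursors with their mature products. The authors deposited, for each call, its first and last base (1-based), strand and name, and no other value such as a read number or score. Loci were matched by name, and the gap is the number of bases between spans. The members and lists were chosen with earlier results of these data known. Every member is described in the text, the unlettered feline mir-196 locus by its position, with the nearest predicted locus on each side where it bears on a result, and mir-99, mir-100, mir-125 and let-7 by their counts. The mir-148 and mir-152 loci were found as such nearest loci and, like the other pairs at 10 to 100 kb and the order of products, were described after their values were seen. No test was made, since each species has 1 call set. Alternatives varied the distance measure, neighbour distance, strand, names, product length and statistic. Human mature sequences came from a supplementary table of the study that was held in part. Python 3.11.15 with numpy 2.4.6 and matplotlib 3.10.9 was used. On simulated lists, the gaps, arms, hairpin measures and names of all 10000 loci were recovered. The simulated loci lay on 1 sequence without overlap, with at most 1 product per arm, so overlapping loci or products were not covered.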

Additional observations from a re-analysis of the deposited data

How the results depend on the processing

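Measured as the difference of precursor starts, the distance between mir-196 and mir-10a was 52268 nt in cow and 53046 nt in cat, and that between mir-196 and mir-615 was 41921 nt in cow and 42448 nt in cat, longer than the gap by 1 precursor. Members with a predicted neighbour numbered 0 in each species at 1, 5 and 10 kb, also when both had to share a strand. They numbered 2 with 50 kb allowed and 4 with 100 kb. The mean precursor length was 64.67 nt in cat, beside a median of 65 nt. Counting antisense names, or products of 20 to 24 nt alone, left 6 loci in each species, all with both arms. No paired analysis was possible because no result comes from a test and the sets hold no values per library. Read counts per locus were not used here, so a copy that is missing from a list is not shown to be unexpressed, and product ends are given without the reads behind them.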
